A study of Mus musculus with 35 samples.

Results

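Integrins are the receptors with which a cell holds on to the extracellular matrix, and 10 genes for integrin subunits and their anchors inside the cell were followed here through RNA sequencing of mouse podocytes. The genes are *Itga3*, *Itga6*, *Itga7*, *Itga8* and *Itgav* for alpha subunits, *Itgb1*, *Itgb5* and *Itgb8* for beta subunits, and *Ilk* and *Parva* for anchor proteins at the cytoplasmic side. They were taken by name from a table of 33292 gene identifiers, and all 10 were found. They were chosen by name and by measured values of these mice, since *Itga7* was selected on its higher TPM in the knock-in lines and set against *Itga3* and *Itgb1*. All 4 comparisons between knock-in and control mice are therefore given for these genes as a description with no test. The remaining comparisons were tested for these genes.

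Podocytes came from 3 genotypes, labelled WT, H77L and C118F, which the study's design and methods give as *Lmx1b*+/lox for WT and, for the others, as the named mutant allele over the same floxed allele. LMX1B is a LIM homeodomain transcription factor of podocytes, and the H77L and C118F alleles change 1 amino acid of its LIM-A and of its LIM-B domain. All mice carried an rtTA transgene expressed in podocytes, tetO::Cre and the mT/mG reporter and drank doxycycline at 2 mg/ml for 7 days, so that Cre removed the homeodomain exons of the floxed allele in podocytes and switched these cells from red to green. The control mice thus kept 1 functional *Lmx1b* allele, and the knock-in mice kept only the mutant one. Mice were injected every other day with the proteasome inhibitor bortezomib (Btz) at 0.3 μg/g or with its solvent DMSO, and green podocytes were sorted by FACS at the end of the doxycycline treatment. There were 6 mice in each group, apart from 5 bortezomib-treated C118F mice, and each of the 35 mice gave 1 library. Mice were 7 to 10 weeks old on a C57Bl/6 J background, and sex and litter are not stated per library.

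An integrin is a pair of 1 alpha and 1 beta subunit that spans the plasma membrane. Outside the cell the pair binds matrix proteins, and inside the cell the tail of the beta subunit recruits talin and kindlin and, through the complex of ILK, PINCH and parvin, the actin cytoskeleton. Podocytes stand on the glomerular basement membrane mainly by the laminin receptor made of the subunits encoded by *Itga3* and *Itgb1*, and loss of either gene in podocytes leads to a defective filter. *Itga6* and *Itga7* encode alpha subunits of further laminin receptors, the latter best known from skeletal and smooth muscle. *Itgav* pairs with *Itgb1*, *Itgb5* or *Itgb8* and binds vitronectin, fibronectin or latent TGF-beta, and *Itga8*, a partner of *Itgb1*, is known in the glomerulus from mesangial cells.

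On GRCm39, the build of the deposited values, *Itga7* (ENSMUSG00000025348) lies at chr10:128769621-128794169 on the plus strand, *Itga3* (ENSMUSG00000001507) at chr11:94935296-94967682 on the minus strand and *Itgb1* (ENSMUSG00000025809) at chr8:129411876-129460618 on the plus strand. *Itgav* (ENSMUSG00000027087) lies at chr2:83554403-83637260 and *Parva* (ENSMUSG00000030770) at chr7:112026712-112190915, both on the plus strand. To show the DNA in front of the genes on which the results turn, the 250 bases upstream of the start of the canonical transcript were read from the genome for *Itga7*, for *Itga3* and for *Itgav*, and they are given in the direction of transcription in lower case. Capitals mark the letters TAATTA, a core that many homeodomain proteins bind and that reads the same on both strands.
*Itga7*, chr10:128769371-128769620: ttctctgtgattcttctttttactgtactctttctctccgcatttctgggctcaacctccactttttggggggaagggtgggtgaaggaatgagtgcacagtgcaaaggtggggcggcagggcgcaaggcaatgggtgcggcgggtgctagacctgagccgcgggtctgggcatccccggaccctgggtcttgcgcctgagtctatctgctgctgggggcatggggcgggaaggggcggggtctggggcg
*Itga3*, chr11:94967645-94967894: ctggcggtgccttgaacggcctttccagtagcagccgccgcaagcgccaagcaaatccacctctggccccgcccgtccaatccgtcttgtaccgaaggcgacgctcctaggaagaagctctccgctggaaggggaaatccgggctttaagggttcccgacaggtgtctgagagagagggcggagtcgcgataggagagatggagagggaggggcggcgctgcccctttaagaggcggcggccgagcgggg
*Itgav*, chr2:83554153-83554402: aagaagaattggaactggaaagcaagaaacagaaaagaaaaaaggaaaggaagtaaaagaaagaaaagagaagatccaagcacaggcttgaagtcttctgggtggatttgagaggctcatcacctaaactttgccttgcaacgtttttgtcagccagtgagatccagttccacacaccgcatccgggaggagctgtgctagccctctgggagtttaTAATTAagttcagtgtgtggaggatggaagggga
Among the 10 genes, TAATTA was found in the window of *Itgav*, where it began 34 bases before the start, and in no other window. Of all 21636 windows of this length in front of protein-coding genes of the table, 5.18% held it. The CArG box, the element read by serum response factor, was in 1.41% of all windows and in none of the 10, in either orientation. These matches describe letters and not binding.

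All 10 podocyte markers, among them *Nphs1*, *Synpo* and *Wt1*, were above 1 TPM (transcripts per 1000000) in every mouse, as the label podocyte requires. The summed podocyte markers had a median of 28055 TPM in WT, 9039 in H77L and 7400 in C118F mice after DMSO, and of 26207, 10961 and 10072 TPM after bortezomib, so the level of these markers moved with the genotype beside every difference given below. The parietal epithelial list summed to 29.4 to 81.8 TPM in WT mice and to 70.7 to 226 TPM in knock-in mice. Within it, *Cldn1* had medians of 24.0 TPM in WT, 93.1 in H77L and 77.3 in C118F mice after DMSO and *Pax8* of 12.6, 27.2 and 25.7 TPM, whereas the medians of *Krt8* were 2.46, 0.541 and 0.192 TPM and those of *Krt18* were 5.29, 1.39 and 0 TPM. Of the 7 markers of mesangial and vascular smooth muscle cells, *Pdgfrb* stood at 4.34 to 22.1 TPM in WT mice and at 64.1 to 544 TPM in knock-in mice, while the others together stayed at or under 25.3 TPM in all mice but 2. These were DMSO-treated C118F replicates 1 and 4, with 2166 and 34.7 TPM of *Ren1*. Endothelial markers summed to at most 159 TPM, leukocyte markers to 2.38 to 327 TPM and tubule markers to 2.19 to 895 TPM, and *Ptprc*, *Adgre1*, *Cd3e* and *Cd79a* of the leukocytes, *Pax2* of the parietal cells and *Pdgfra* were listed at 0 in at least 18 mice. In bulk RNA, a change in the share of cells of a type and a change of RNA per cell cannot be told apart, and the part of these markers in the results was not tested. Within a mouse, the lowest values rise in whole steps, and 1 read of a gene of 1 kilobase was worth 0.151 to 0.263 TPM in 34 mice and 0.683 TPM in bortezomib-treated C118F replicate 2, the shallowest library.

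**Figure D1:**
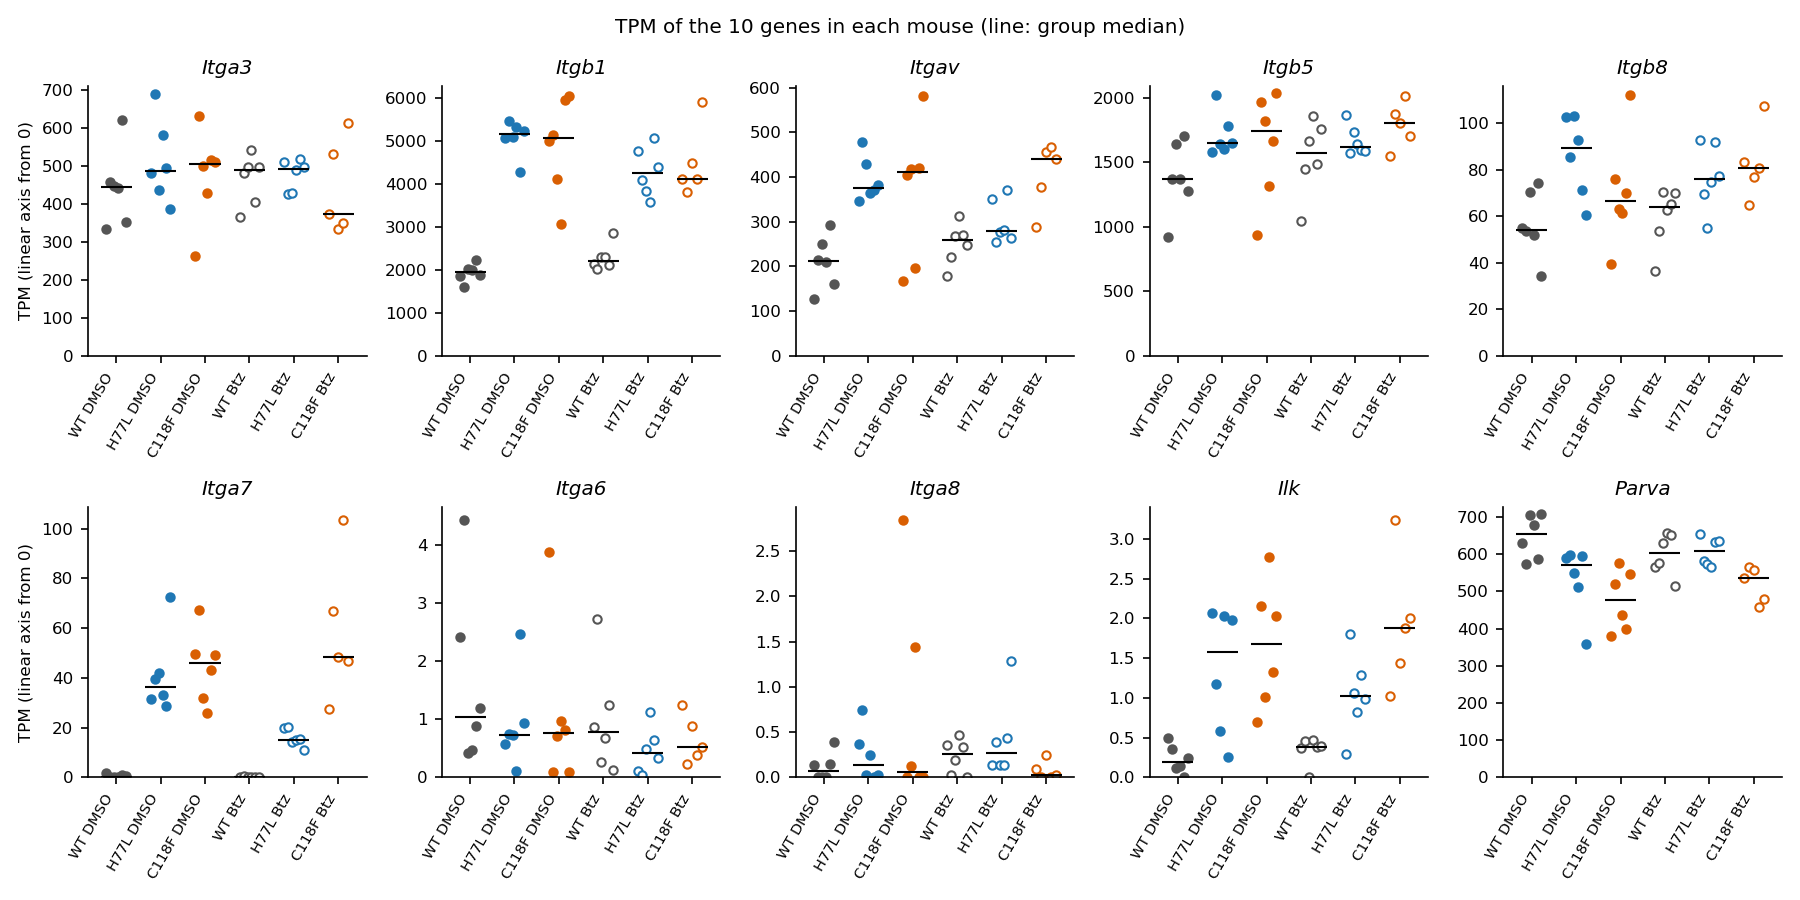
TPM of the 10 genes in each mouse (1 point per mouse, filled for DMSO and open for bortezomib, line at the group median, vertical axes linear from 0 and different for each gene), by genotype and treatment. *Itgb1* and *Itga7* separate every knock-in mouse from every WT mouse of the same treatment, *Itga3* overlaps in all groups, and *Itga6*, *Itga8* and *Ilk* stay at or under 4.42 TPM.

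The podocyte expressed a graded set of these genes. In DMSO-treated WT mice the medians ran from *Itgb1* (1941 TPM) over *Itgb5* (1374), *Parva* (655), *Itga3* (445), *Itgav* (212) and *Itgb8* (54.2) to *Itga6* (1.04), *Itga7* (0.299), *Ilk* (0.192) and *Itga8* (0.0652 TPM). TPM is corrected for gene length, so these levels may be set side by side. The ranges of *Itgb1* and *Itgb5* overlapped in these mice, as did those of *Parva* and *Itga3* and those of the last 4 genes, and the remaining neighbours did not overlap. In both DMSO-treated knock-in groups, the range of *Itgb1* lay above that of *Itgb5*, and *Itga7* had moved to the place after *Itgb8*, whose range it overlapped. The order of *Itgb1* and *Itgb5* was not particular to the knock-in lines. *Itgb1* was above *Itgb5* within each DMSO-treated WT mouse as well. In bortezomib-treated WT mice the ranges were also separate, with a lowest *Itgb1* of 2029 TPM and a highest *Itgb5* of 1861 TPM.

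*Itga3*, the alpha subunit of the main podocyte anchor, was on a similar level in all 6 groups. Lowest, median and highest values were 333, 445 and 621 TPM in WT, 387, 487 and 689 TPM in H77L and 262, 505 and 631 TPM in C118F mice after DMSO. After bortezomib they were 364, 489 and 541 TPM in WT and 427, 492 and 519 TPM in H77L mice, and the 5 C118F mice had 372, 530, 333, 350 and 613 TPM. The groups overlapped throughout. On the log2(TPM + 1) scale, which is used for all differences and understates those of low genes, *Itga3* differed from WT mice of the same treatment by 0.21 ± 0.16 (± standard error) in H77L and 0.08 ± 0.20 in C118F mice after DMSO, and by 0.05 ± 0.10 and -0.11 ± 0.16 after bortezomib.

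Its partner *Itgb1*, the beta subunit shared by most laminin and collagen receptors, stood higher in both DMSO-treated knock-in groups, by 2.63-fold in H77L and 2.53-fold in C118F mice in the ratio of group means. WT mice had 1610, 1941 and 2221 TPM (lowest, median and highest), H77L mice 4281, 5168 and 5467 TPM and C118F mice 3077, 5073 and 6060 TPM. After bortezomib the values were 2029, 2217 and 2854 TPM in WT and 3574, 4248 and 5064 TPM in H77L mice, and 4119, 3812, 4489, 4112 and 5899 TPM in the 5 C118F mice. Every knock-in mouse lay above every WT mouse of either treatment. The log2 difference from WT was 1.40 ± 0.11 in H77L and 1.31 ± 0.17 in C118F mice after DMSO, and 0.91 ± 0.11 and 0.96 ± 0.14 after bortezomib. The ratio of *Itgb1* to *Itga3* had a median of 4.52 in WT (range 3.52 to 5.54), 9.86 in H77L (7.94 to 13.5) and 9.89 in C118F mice (7.17 to 19.2) after DMSO. After bortezomib the median ratio was 4.93 in WT (4.21 to 5.88), 9.15 in H77L (7.31 to 9.76) and 11.1 in C118F mice (7.19 to 13.5).

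**Figure D2:**
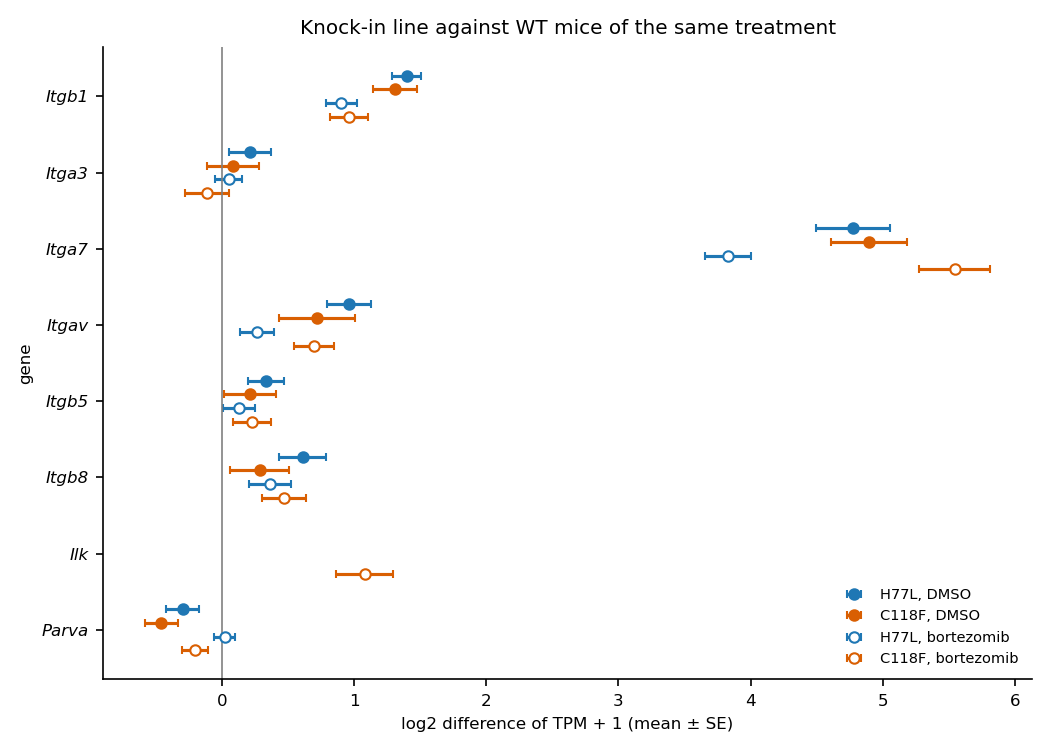
Log2 differences of TPM + 1 between each knock-in line and WT mice of the same treatment (points, with bars of 1 standard error; filled for DMSO, open for bortezomib; genes on the vertical axis), for the genes that passed the filter on low values. *Itga7* has differences from 3.83 to 5.54, *Itgb1* from 0.91 to 1.40, *Itga3* lies near 0 and *Parva* at or below 0.02.

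*Itga7*, the muscle laminin receptor subunit, was next to absent in WT podocytes. DMSO-treated WT mice had 0, 0.299 and 1.91 TPM (lowest, median and highest) and bortezomib-treated WT mice 0, 0.142 and 0.468 TPM, which correspond to 0 to 81 reads per mouse by the steps of the values. DMSO-treated H77L mice had 28.7, 36.2 and 72.5 TPM and C118F mice 25.9, 46.2 and 67.3 TPM. After bortezomib H77L mice had 10.9, 15.1 and 20.4 TPM and the C118F mice 27.4, 67.0, 48.5, 103 and 46.8 TPM. The knock-in mice held 460 to 5374 reads of *Itga7* each, and no knock-in mouse overlapped any WT mouse. The log2 difference from WT was 4.78 ± 0.28 in H77L and 4.89 ± 0.29 in C118F mice after DMSO, and 3.83 ± 0.17 and 5.54 ± 0.27 after bortezomib. The lncRNA genes *Gm67752* and *Gm67756* and the gene *Tmt1b* on the opposite strand share 3.82% of its exon bases. Of vascular smooth muscle, a cell type known to make *Itga7*, the 5 markers besides *Pdgfrb* and *Ren1* summed to medians of 3.42 TPM in WT, 2.08 in H77L and 0.906 in C118F mice after DMSO, and the highest sum was 57.0 TPM in C118F replicate 1. Among these 5, *Myh11* had medians of 0.0990, 1.05 and 0.472 TPM, and *Pdgfrb* moved with *Itga7*, with medians of 13.3 TPM in WT, 196 in H77L and 125 in C118F mice after DMSO. The part of such cells in the level of *Itga7* was not tested.

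Counted over all 18 integrin alpha subunit genes of mouse that were listed, the composition of the alpha subunit transcripts differed between WT and knock-in podocytes. *Itga3* made up 64.5% (mean, range 61.7 to 66.7%, n = 6) of the summed alpha subunit TPM in DMSO-treated WT mice, 45.7 ± 5.43% (mean ± SD, n = 6) in H77L and 44.7 ± 6.79% (n = 6) in C118F mice, and no knock-in mouse of this treatment reached the lowest WT mouse at 61.7%. The summed alpha subunit TPM had medians of 700, 1057 and 1161 TPM, while *Itga3* itself overlapped between these groups as given above. *Itga7* itself held 0.0989 ± 0.145% in WT, 3.74 ± 1.57% in H77L and 4.34 ± 1.75% in C118F mice, and was thus a minor component even in the knock-in lines. The fibronectin receptor subunit *Itga5*, with 1.56 ± 0.335%, 6.33 ± 3.41% and 8.90 ± 4.52%, and the collagen receptor subunit *Itga11*, with 0.0791 ± 0.0356%, 3.64 ± 0.457% and 3.94 ± 1.04%, took up shares of the same order. *Itgav* held 30.1 ± 2.92%, 35.6 ± 3.20% and 32.7 ± 7.06%, and *Itga1* and *Itga2* together 3.29 ± 0.644%, 4.84 ± 0.543% and 4.93 ± 1.25%. After bortezomib *Itga3* held 61.5 ± 2.62% (n = 6) in WT, 54.4 ± 2.72% (n = 6) in H77L and 41.8 ± 7.62% (n = 5) in C118F mice.

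**Figure D3:**
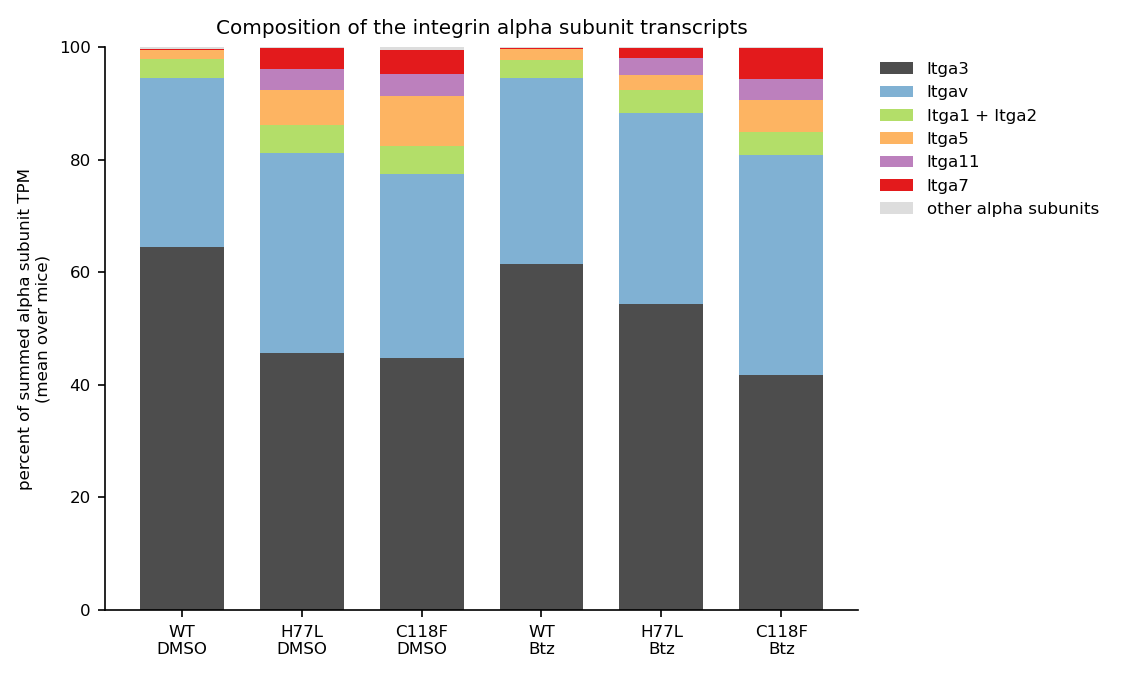
Mean share of integrin alpha subunit genes in the summed TPM of 18 such genes (stacked bars, percent, axis from 0 to 100), for the 6 groups of 5 or 6 mice. *Itga3* makes up 64.5% in DMSO-treated WT, 45.7% in H77L and 44.7% in C118F mice. *Itgav*, *Itga1* with *Itga2*, *Itga5*, *Itga11* and *Itga7* fill larger parts of the knock-in bars.

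*Itgav*, the alpha subunit of the vitronectin receptors, was higher in DMSO-treated knock-in mice with less separation than *Itgb1*. Its lowest, median and highest values were 126, 212 and 293 TPM in WT, 346, 376 and 477 TPM in H77L and 168, 411 and 581 TPM in C118F mice. All H77L mice lay above all WT mice, and 2 C118F mice lay within the WT range. After bortezomib the values were 179, 258 and 313 TPM in WT and 255, 279 and 370 TPM in H77L mice, and 288, 377, 456, 467 and 441 TPM in C118F mice. The log2 difference from WT was 0.96 ± 0.17 in H77L and 0.72 ± 0.29 in C118F mice after DMSO, and 0.27 ± 0.13 and 0.70 ± 0.15 after bortezomib.

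The beta subunits that pair with *Itgav* differed less. *Itgb5* had 922, 1374 and 1702 TPM in WT, 1580, 1648 and 2025 TPM in H77L and 939, 1746 and 2037 TPM in C118F mice after DMSO, with log2 differences from WT of 0.33 ± 0.14 and 0.21 ± 0.20. *Itgb8*, a subunit known for the activation of latent TGF-beta, had 34.2, 54.2 and 74.5 TPM in WT, 60.5, 89.2 and 103 TPM in H77L and 39.4, 66.6 and 112 TPM in C118F mice, with log2 differences of 0.61 ± 0.18 and 0.29 ± 0.22. Both genes overlapped between all groups. After bortezomib their medians were 1577 and 64.0 TPM in WT, 1618 and 76.1 TPM in H77L and 1807 and 80.6 TPM in C118F mice.

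*Itga6* and *Itga8* were close to the limit of detection and passed the filter of more than 1 TPM in every mouse of a group in none of the 6 groups. *Itga6* was above 1 TPM in 9 of 35 mice, with group medians from 0.414 TPM in bortezomib-treated H77L to 1.04 TPM in DMSO-treated WT mice and a highest value of 4.42 TPM, or 2 to 203 reads. *Itga8* was at 0 in 10 mice and above 1 TPM in 3, with 0 to 120 reads. The highest *Itga8*, 2.84 TPM, came from DMSO-treated C118F replicate 1, the mouse that also held 2166 TPM of *Ren1* and 25.3 TPM of the endothelial marker *Pecam1*.

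The anchor proteins act in the same complex behind the beta subunit tail. *Parva*, an actin-binding adaptor, had 575, 655 and 708 TPM in WT, 357, 570 and 598 TPM in H77L and 379, 478 and 577 TPM in C118F mice after DMSO. H77L mice reached into the WT range from below and C118F mice up to the lowest WT mice, and the log2 differences were -0.30 ± 0.12 and -0.46 ± 0.12. After bortezomib *Parva* had medians of 603 TPM in WT, 608 in H77L and 536 in C118F mice, with differences of 0.02 ± 0.08 and -0.20 ± 0.10. *Ilk*, the kinase-like scaffold of the same complex, was counted at only 0 to 38 reads per mouse. Its median was 0.192 TPM in WT, 1.58 in H77L and 1.67 in C118F mice after DMSO and 0.386, 1.03 and 1.88 TPM after bortezomib, and it passed the filter only through the C118F mice with bortezomib, where the difference from WT was 1.08 ± 0.22. Of the exon bases of *Ilk*, 90.3% are also exons of *Rrp8* and *Taf10* on the opposite strand, which had medians of 30.3 to 40.8 TPM and 24.0 to 34.2 TPM over the 6 groups. Whether strand was used in counting is not stated, and the low level of *Ilk* is uncertain for this reason. Among the other members, the share of exon bases under genes of the opposite strand reached at most 7.37%, in *Itga3*.

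Of the 7 members that passed the filter after DMSO, *Itga7*, *Itgb1* and *Itgav* in H77L mice and *Itga7* and *Itgb1* in C118F mice lay above all WT mice. That is 3 and 2 of 7 members, where 11% and 6.48% of all genes tested were separated in this way. *Ilk* did not pass the filter after DMSO, but its C118F values (0.699 to 2.78 TPM) also lay above all WT values (0 to 0.490 TPM). Under bortezomib *Itga7* and *Itgb1* in H77L mice and *Itga7*, *Itgb1* and *Ilk* in C118F mice lay above all WT mice, at 6.8% and 9.01% of all genes. *Itga7* and *Ilk* passed the filter on low values only through knock-in groups, and nothing is read from these counts, since the genes were chosen with such values known and both lines were set against the same WT mice.

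Bortezomib was compared with DMSO within each genotype to ask whether proteasome inhibition moved the integrin genes. In H77L mice, *Itga7* fell from a median of 36.2 TPM to 15.1 TPM, and no bortezomib-treated mouse reached the lowest DMSO-treated one, as in 1.16% of all genes tested. The log2 change was -1.28 (standard error 0.20, adjusted p = 0.0184 from limma), and *Itga7* was the only 1 of 7 members called, against 1.16% of 10813 genes. Of those, 45 were higher and 80 lower, or 28 and 102 after median-ratio scaling. The DMSO-treated H77L mice are among those by which *Itga7* was chosen, so the fall starts from values known to be high. The call was lost without any 1 of 4 bortezomib-treated mice (replicates 2, 3, 4 and 6), with adjusted p from 0.0505 to 0.0769, and with no filter on low values (adjusted p = 0.0829). The change in H77L minus that in C118F mice was -1.60 (95% interval -2.38 to -0.81, unadjusted p = 3.3e-04 from limma). After adjustment over all 11046 genes tested this difference was not called (adjusted p = 0.587). Against the change in WT mice the contrast gave -0.95 (standard error 0.34, adjusted p = 0.142). WT values lay near 0, where log2(TPM + 1) compresses changes, so this contrast cannot show whether H77L and WT mice respond differently. The ratio of group means, bortezomib over DMSO, was 0.386 in H77L and 0.303 in WT mice, the latter from few reads. No interaction was called by limma for any of 11163, 11046 and 11197 genes (H77L minus WT, H77L minus C118F and C118F minus WT), with 2037, 840 and 560 genes and 4, 2 and 0 members at an unadjusted p under 0.05.

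The other members were not called in H77L mice. *Itgav* changed from a median of 376 to 279 TPM, a log2 difference of -0.41 (standard error 0.11, adjusted p = 0.0719), and its groups overlapped. *Itgb1* differed by -0.25 (95% interval -0.48 to -0.02, adjusted p = 0.208), *Parva* by 0.21 (-0.03 to 0.45, adjusted p = 0.324) and *Itga3* by -0.08 (-0.33 to 0.18, adjusted p = 0.777). The intervals of *Itgb5* and *Itgb8* were -0.21 to 0.13 and -0.47 to 0.16.

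In WT and C118F mice no member was called after bortezomib, and neither was any of the 10659 and 10814 genes tested by limma, although 923 and 634 of them had an unadjusted p under 0.05. None of the members reached that unadjusted threshold. With all 35 mice in 1 fit, limma called 7 genes higher and 24 lower in C118F mice and 0 in WT mice. In WT mice *Itgb1* differed by 0.24 (95% interval -0.00 to 0.49, adjusted p = 0.573), and *Itga7* was too low to be tested. In C118F mice the interval of *Itga7* ran from -0.33 to 0.97 around 0.32 (adjusted p = 0.836), that of *Itgav* from -0.35 to 0.88 and that of *Itgb1* from -0.53 to 0.32, so changes of moderate size in either direction remained possible for these genes.

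**Figure D4:**
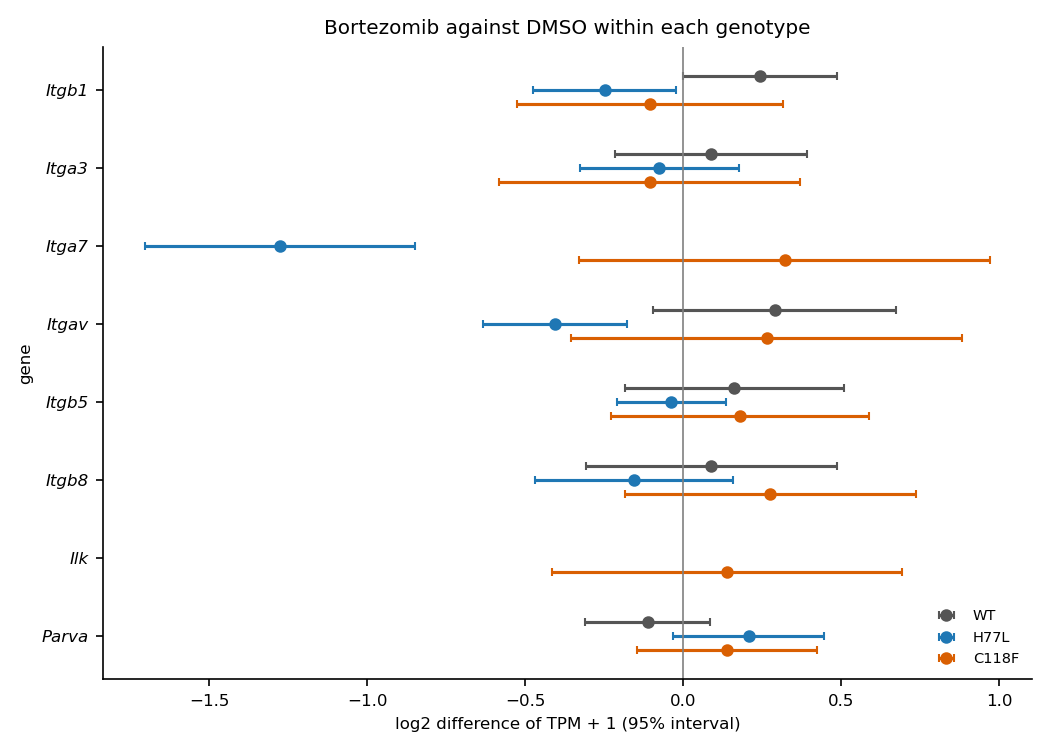
Log2 differences of TPM + 1 between bortezomib and DMSO within WT, H77L and C118F mice (points with 95% intervals; genes on the vertical axis), for the genes that passed the filter on low values in that comparison. The interval of *Itga7* in H77L mice lies below 0, from -1.70 to -0.85, and that in C118F mice spans 0.

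The knock-in lines were then compared with each other. After DMSO no member was called between C118F and H77L mice, nor was any of the 10809 genes tested by limma, of which 416 had an unadjusted p under 0.05, and none of these was a member. The difference of *Itga7* was 0.12 (95% interval -0.40 to 0.63, adjusted p = 0.966) and that of *Itgb1* was -0.09 (-0.45 to 0.27, adjusted p = 0.965). After bortezomib, *Itga7* was higher in C118F than in H77L mice by 1.71 (standard error 0.26, adjusted p = 0.00971), and the lowest of the 5 C118F mice at 27.4 TPM lay above the highest H77L mouse at 20.4 TPM, a separation in this direction that 1.22% of all genes had. It was 1 of 8 members called, against 0.972% of 10803 genes. With 1 mouse left out at a time the adjusted p stayed between 7.3e-04 and 0.0273. It rose to 0.0533 with no filter on low values and to 0.061 when the mouse number entered the fit. *Itgav* differed by 0.43 (standard error 0.14, adjusted p = 0.168) and *Parva* by -0.23 (standard error 0.08, adjusted p = 0.222).

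Beyond the members, a list of 82 further adhesion genes was tested in all comparisons. The list was drawn up with earlier results of these mice known, so its counts describe these genes and are no independent evidence of a direction. In DMSO-treated H77L mice 56 of them could be tested, of which 36 were higher and 4 lower than in WT mice, while 22.4% of all genes were called in each direction. In C118F mice 28 of 55 were higher and 3 lower, at 13.7% and 16.6% of all genes. The median log2 difference of the tested genes was 0.78 in H77L and 0.70 in C118F mice, next to -0.01 and -0.06 over all genes tested. In both directions together these were 40 of 56 and 31 of 55 genes, at 44.8% and 30.4% of all genes. After median-ratio scaling, the genes called in C118F mice over the whole table were 1703 higher and 1406 lower, in place of 1498 and 1810. Some genes passed the filter on low values only through the knock-in mice, and the counts by gene group given below include such genes. Of the 47 list genes above 1 TPM in every DMSO-treated WT mouse, a count added after the data were seen, 30 were higher and 4 lower in H77L and 22 and 3 in C118F mice, at 20.2% and 23.7% and at 11.4% and 17.5% of all genes of that kind. Both lines were set against the same WT mice.

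Of 13 further alpha subunits, 4 could be tested, and these were higher in both lines, where 22.4% of all genes were higher in H77L and 13.7% in C118F mice. Nothing is read from a count this small. *Itga11*, a receptor subunit for fibrillar collagen, had 0.239, 0.538 and 0.632 TPM in WT, 32.1, 38.4 and 60.5 TPM in H77L and 26.3, 37.5 and 78.5 TPM in C118F mice, with log2 differences of 4.78 ± 0.16 and 4.76 ± 0.23. It passed the filter only through the knock-in mice in which it was high, and its difference is given as a description. *Itga11* was thus under 1 TPM in WT mice and on a level near that of *Itga7* in the knock-in mice, and the groups did not overlap. *Itga5*, which binds fibronectin, had medians of 10.7, 60.1 and 89.3 TPM, with differences of 2.51 (standard error 0.26, adjusted p = 4.3e-06) and 2.86 (0.33, adjusted p = 1.4e-05). *Itga1* and *Itga2*, both for collagen receptors and named here after their values were seen, differed by 1.09 and 1.28 in H77L and by 0.70 and 1.32 in C118F mice. None of the 6 further beta subunits passed the filter on low values in these comparisons.

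Few activators and complex partners could be tested. Of the activators, 2 of 3 were higher in H77L and 1 of 2 in C118F mice, and of the ILK and parvin partners 1 of 3 in each line. None was lower, and 22.4% and 13.7% of all genes were higher. Nothing is read from counts this small. Kindlin-2, encoded by *Fermt2*, rose in both lines (1.31 and 1.23) and talin-1, encoded by *Tln1*, only passed the test in H77L mice (1.02, against 0.48 in C118F mice), and the lines did not differ by the test (-0.54, adjusted p = 0.931). Of the ILK and parvin partners, *Lims1*, which encodes PINCH-1, rose by 0.76 and 0.86, whereas *Lims2* and *Rsu1* did not pass. *Fermt2*, *Tln1*, *Lims1*, *Lims2* and *Rsu1* are named after their values were seen.

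Of the plaque scaffolds and actin linkers, 14 of 21 were higher and none lower in each line, where 22.4% of all genes were higher in H77L and 13.7% in C118F mice. The 21 include *Fblim1*, *Fhl2* and *Tns1*, which passed the filter only through the knock-in mice, so these counts are a description. *Csrp1*, a LIM protein of actin bundles, had medians of 79.0 TPM in WT, 413 in H77L and 700 in C118F mice and rose by 2.64 (standard error 0.21, adjusted p = 2.4e-07) and 3.09 (0.21, adjusted p = 8.9e-08). *Fblim1*, which links kindlin to filamin, had medians of 0.0275, 3.95 and 7.17 TPM and likewise passed the filter only through the knock-in mice. Among 14 kinases and adaptors, 8 were higher and 3 lower in H77L mice, at 22.4% of all genes in each direction. In C118F mice 2 were higher and 3 lower, a share near the 13.7% and 16.6% of all genes. The lower genes were *Pak1*, *Fyn* and *Crkl* in each line. *Pak1*, a kinase that acts downstream of Rac and Cdc42, went from a median of 1070 TPM in WT to 164 and 138 TPM, with log2 differences of -2.68 (standard error 0.14, adjusted p = 6e-09) and -2.82 (0.16, adjusted p = 2.2e-08), and no group overlap. *Fyn*, a *Src*-family kinase that phosphorylates nephrin, differed by -0.82 and -0.98, and the adaptor *Crkl* by -0.41 and -0.46. *Cd151*, a tetraspanin that associates with the *Itga3* receptor and is named after its value was seen, was called lower in H77L mice (-0.42) and not in C118F mice (0.13), and no list gene was called between the lines after DMSO.

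Ligands were tested for 10 of 14 genes, of which 7 rose in H77L and 6 in C118F mice, at 22.4% and 13.7% of all genes. Some of these ligands passed the filter only through the knock-in mice, so the counts are a description. *Tnc*, the matrix protein tenascin C, had medians of 0.50 TPM in WT, 9.83 in H77L and 15.2 in C118F mice and differed by 2.71 ± 0.63 and 2.91 ± 0.46, again with the filter passed only through the knock-in mice and with a wide spread from 2.67 to 79.0 TPM in H77L mice. The laminin chain *Lamc1*, part of the ligand of the *Itga3* receptor, rose by 1.32 and 1.00.

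**Figure D5:**
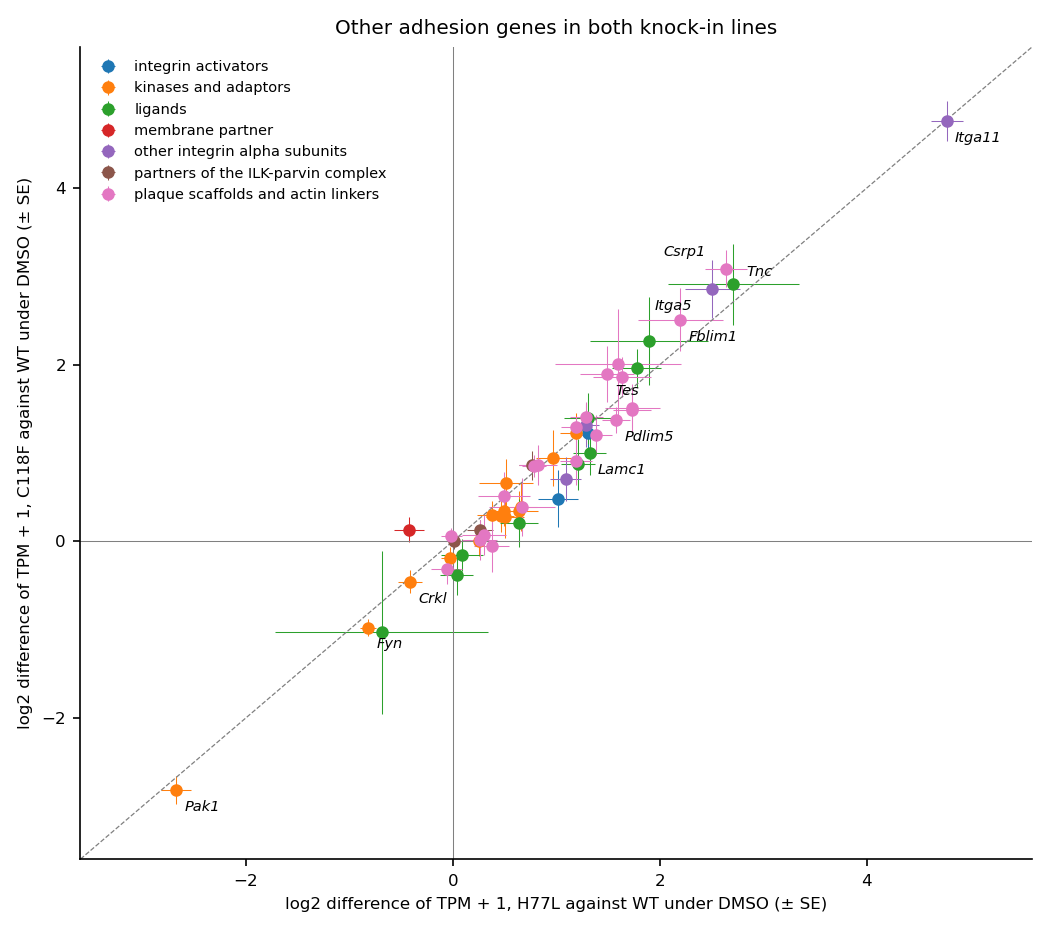
Log2 differences of TPM + 1 against DMSO-treated WT mice in H77L (horizontal axis) and C118F mice (vertical axis) for the 55 adhesion genes tested in both, coloured by group, with bars of 1 standard error and a dashed line of equal values; both axes share the same WT mice. *Itga11* lies at the upper end at 4.78 and 4.76 and *Pak1* at the lower end at -2.68 and -2.82.

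Under bortezomib, 26 of 51 and 28 of 55 list genes were called in H77L and C118F mice, at 23.6% and 27.5% of all genes. There, 23 of 51 tested list genes were higher and 3 lower in H77L mice, at 12.5% and 11% of all genes, and 26 of 55 were higher and 2 lower in C118F mice, at 15.1% and 12.4% of all genes. The medians were 0.43 and 0.64 next to -0.01 and 0.00 over all genes. The lowest adjusted p-values belonged in both lines to *Pak1* (-2.09 and -2.53), *Pdlim5* (1.66 and 1.70), a PDZ and LIM protein of actin filaments, and *Itga11* (3.82 and 4.39). Here too *Itga11* passed the filter only through the knock-in mice, so its place in this order and its difference are a description. The third lower gene in H77L mice was *Sorbs3* (-0.26), which is named after its value was seen, beside *Pak1* and *Fyn*.

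Bortezomib changed 6 of 56 list genes in H77L mice, 1 upward and 5 downward, at 0.416% and 0.74% of all genes. These calls were fragile, since 0 remained with no filter on low values and 3 with all 35 mice in 1 fit, and 0 to 8 were made with 1 mouse left out. The count was 0 without DMSO-treated replicate 2 or bortezomib-treated replicate 2, 3, 4 or 6, 1 without DMSO-treated replicate 4 and 3 without DMSO-treated replicate 3 or bortezomib-treated replicate 5. *Itga5* fell from a median of 60.1 to 22.7 TPM (log2 change -1.41, standard error 0.25, adjusted p = 0.0298) and *Lamc1* from 105 to 71.1 TPM (-0.60, standard error 0.11, adjusted p = 0.0336), and neither group overlapped. *Pak1* rose from 164 to 227 TPM (0.52, standard error 0.11, adjusted p = 0.0352) and stayed far under the WT median of 975 TPM under bortezomib, which no H77L mouse reached. As the only upward call, it was lost with no filter and with all 35 mice in 1 fit. By RT-qPCR, the study reported lower *Pak1* in both lines whether DMSO or bortezomib was given. The remaining calls were *Tnc* (-2.71), which passed the filter only through the DMSO-treated mice, *Itga11* (-0.65) and *Vcl* (-0.53), of which vinculin's *Vcl* is named after its value was seen. No list gene was called after bortezomib in WT or C118F mice, between the lines after DMSO or in any interaction, with 5, 6 and 1 list genes at an unadjusted p under 0.05 in the first 3 of these comparisons by limma. Between C118F and H77L mice under bortezomib, 3 of 55 list genes were called, all higher in C118F (0.713% of all genes), or 1 with no filter, 1 when the mouse number entered the fit, 0 with all 35 mice in 1 fit and 7 without C118F replicate 1. These were *Csrp1* by 1.09 (standard error 0.12, adjusted p = 0.00116), *Itga5* by 1.27 (0.21, adjusted p = 0.0145) and *Tes*, a LIM protein of focal adhesions, by 0.92 (0.18, adjusted p = 0.0238).

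The genes most like a member were sought by Pearson's r of log2(TPM + 1) over the 35 mice among 11306 genes, as a description in which mice share genotype and treatment. Closest to *Itga7* were *Hexa*, a lysosomal hexosaminidase (r = 0.98), *Mustn1* (r = 0.98) and *Twsg1*, a BMP-binding protein (r = 0.98), and within groups, after each group was centred on its mean, these were 0.71, 0.70 and 0.62. Close to *Itgb1* were *Esyt2* (0.96) and *Stx11* (0.95), with 0.76 and 0.73 within groups. *Itga3* was closest to *Rad21*, a cohesin subunit (0.83), *Ptk7* (0.80) and *Plekhg2* (0.78), and these values remained at 0.87, 0.81 and 0.79 within groups. *Itga7* and *Itgb1* had an r of 0.91 over all mice and of 0.23 within groups, and *Itga7* and *Itga3* of 0.06 and -0.08. Within groups, *Itga3* varied most with *Itgb5* (0.70), *Itgav* (0.64) and *Itgb8* (0.61) among the members.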

How the data were processed

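Poly(A) RNA of sorted podocytes was sequenced from 1 end in 35 mice. Per the labels and the study's methods, the authors trimmed reads with Trim Galore 0.6.7, aligned them with STAR to GRCm39 (Ensembl 110) and counted them with featureCounts 1.6.3, and duplicates were assessed with Picard. The values the authors deposited are TPM, which sum to 1000000 in each mouse; the strand setting and the step from counts to TPM are not given in the sources used here. Of 33292 identifiers, 32776 were found in GENCODE vM39, from which positions, exon overlaps and upstream windows were taken on GRCm39; this is a later annotation than the authors' one. A table of RefSeq promoters on another build was not used.

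Genes above 1 TPM in every mouse of at least 1 group compared were fitted on log2(TPM + 1), on the mice of those groups, with limma 3.58.1 (lmFit, eBayes with trend) in R 4.3.3, with Benjamini-Hochberg adjustment over all genes tested. An adjusted p under 0.05 was the call. The study's own cutoffs (adjusted p under 0.001 and absolute log2 fold change above 2) were used to choose named genes. The fits were tested on simulated data. The 12 comparisons were each line against WT and against the other line under both treatments, bortezomib against DMSO in each genotype, and 3 interactions. Alternatives were a pseudocount of 0.1, no filter, all 35 mice in 1 fit, median-ratio scaling, the mouse number as a covariate and each mouse left out.

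The members and lists were chosen with earlier results of these data known. Named are all members and, of the 82 list genes, those past the study's cutoffs in a line under DMSO, the 5 highest and 5 lowest means among genes called in both lines in the same direction, and the up to 3 called genes with the lowest adjusted p-values in each other comparison; for likeness, the 3 genes with the highest r, of which 1 is not reported here. Replicate numbers follow the order of the records. The study reports choosing mice from different litters but gives no litter per library, so p-values measure the spread between these mice. Whole reads of low genes were read from TPM steps within 0.05 reads. PCR reads without molecular identifiers are not independent molecules. Protein sequences were not analysed here.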

Additional observations from a re-analysis of the deposited data

Results flagged for a closer look

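With 60 pairs of a member and a group screened by Dixon's test, 5 mice stood apart from the others of their group, and chance gives about 1 in 20. *Itgb1* was 4281 TPM in DMSO-treated H77L replicate 5 against 5063 to 5467 TPM in the other mice of the group, and 2854 TPM in bortezomib-treated WT replicate 6 against 2029 to 2294 TPM. Both mice remained on the side of their own genotype. *Parva* was 357 TPM in DMSO-treated H77L replicate 6 against 511 to 598 TPM in the other mice. Of the genes near the limit of detection, *Itga8* was 1.29 TPM in bortezomib-treated H77L replicate 6 against 0.132 to 0.431 TPM, and *Ilk* was 0 in bortezomib-treated WT replicate 3 against 0.373 to 0.472 TPM. No interaction of genotype and bortezomib was called for a member.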

How the results depend on the processing

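No paired analysis was possible because the labels share no replicate number between groups. Numbers of called list genes in each knock-in comparison with WT stayed within 1.5 times of the reported ones under the 5 settings that keep all mice. The calls within the treated and between the knock-in mice were less stable. For bortezomib against DMSO in H77L mice, 1 member and 6 list genes became 0 and 0 with no filter on low values, and the list genes became 3 with all 35 mice in 1 fit. For C118F against H77L mice under bortezomib, 1 member became 0 with no filter and 0 when the mouse number entered the fit, and 3 list genes became 1, 1 and, with all 35 mice in 1 fit, 0. With no filter, more genes are tested; the cause of the other losses was not tested. With each mouse left out in turn, called members numbered 0 to 2 for bortezomib in H77L mice and 1 to 2 for C118F against H77L mice under bortezomib. The list genes numbered 0 to 8 and 2 to 7 in the same order. Against WT mice they numbered 36 to 41 in H77L and 27 to 33 in C118F mice after DMSO and 24 to 28 and 27 to 32 under bortezomib. In the bortezomib response of H77L minus WT they were 0 to 1 members and 0 to 4 list genes, and 0 in the other comparisons. *Itgav* passed the test for bortezomib in H77L mice without bortezomib-treated H77L replicate 1 (adjusted p = 0.0459 from limma), between the lines under bortezomib without C118F replicate 1 (0.0275) and in the response of H77L minus WT without DMSO-treated WT replicate 5 (0.0497).

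With a pseudocount of 0.1 the log2 differences of *Itga7* from WT widened to 6.62 and 6.74 after DMSO and 6.04 and 7.81 after bortezomib in H77L and C118F mice, and that of *Ilk* in bortezomib-treated C118F mice from 1.08 to 2.27. In the same comparison *Itgb1* went from 0.96 to 0.71 when the mouse number entered the fit. Over the alternatives, *Itgb1* ranged from 1.33 to 1.45 in H77L and from 1.08 to 1.44 in C118F mice after DMSO, always in the same direction. *Itga3* in C118F mice ranged from -0.02 to 0.25 after DMSO and changed its sign in 2 of 17 alternatives. *Itga6*, *Itga8* and *Ilk* rest on few reads, and with 1 library per mouse at most 5 or 6 values stand behind each group.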
